A study of Mus musculus with 8 samples.

Results

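The St6galnac genes encode 6 sialyltransferases, and all 6 (St6galnac1 to St6galnac6) were read in white adipose tissue of mice given endostatin or vehicle. They are 6 of the 37014 features obtained when the transcripts of each library were summed by gene symbol, and 32 transcripts belonged to them. St6galnac5 had been singled out because it ranked 6 of 15176 tested genes by p-value in the comparison of endostatin with control, and the other 5 genes complete its family. The difference of St6galnac5 between those groups is therefore given as a description, with no test.

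The study measured total RNA after depletion of ribosomal RNA in 8 libraries from female wild-type C57BL/6J mice, an inbred laboratory strain. The control group (4 libraries) received phosphate-buffered saline (PBS) and the endostatin group (4 libraries) received 50 mg/kg endostatin, both into the tail vein. The tissue was collected 2 h later, and food was withheld in between. Endostatin is a fragment of collagen XVIII known for restraining the growth of blood vessels. Libraries 1 and 2 of each group carry the label batch 1, and libraries 3 and 4 carry the label batch 2; the labels do not say what was done in batches. Ages are not given in the labels, and neither is a link between a library and an animal, so that errors measure the spread between these libraries, which may be technical in part. The tissue label says epididymal although the mice were female. All 10 adipocyte markers, such as Adipoq and Plin1, were found, and their summed level was 27240 to 52610 TPM (an abundance scaled for transcript length and library total) in controls and 40450 to 45650 TPM after endostatin.

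Sialic acids are charged sugars that end many glycan chains on proteins and lipids, and each family of sialyltransferases attaches them to a particular sugar by a particular bond. St6galnac enzymes place sialic acid on N-acetylgalactosamine. St6galnac1 and St6galnac2 act mainly on O-linked chains of glycoproteins such as mucins, St6galnac3 and St6galnac4 act on chains that already carry a sialic acid, and St6galnac5 and St6galnac6 act chiefly on gangliosides, the sialic acid-bearing glycolipids of the cell surface. St6galnac5 is best known from brain, where it makes alpha-series gangliosides. In fat cells, gangliosides are known as components of the membrane microdomains that hold caveolae and insulin receptors.

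The members are related but distinct in sequence. Across the coding sequences of the main transcripts, the identity of aligned bases lay between 58.3% (St6galnac2 with St6galnac6) and 63.1% (St6galnac5 with St6galnac6). St6galnac5 had 61.8% identity with St6galnac2, 61.6% with St6galnac4, 60.8% with St6galnac1 and 58.7% with St6galnac3, a narrow range. The closest pair shared an identical run of 17 bases, gtgttcatcttctgggg, starting at coding base 496 of St6galnac5 and 535 of St6galnac6, and no other pair had a longer one. The lines here hold the 48 in-frame coding bases of St6galnac5 with the most matches to the other members, and the best-matching stretch of each other gene. They are shown because they hold the positions most alike across the family. The sequences are taken from the GENCODE M21 transcripts, 5′ to 3′, and positions count from the A of the start codon. Capitals in the line of St6galnac5 (bases 688 to 735) mark the 15 positions that are the same in all 6 genes, and capitals in the other lines mark bases identical to St6galnac5.
St6galnac5: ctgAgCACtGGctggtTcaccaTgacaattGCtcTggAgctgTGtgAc
St6galnac6: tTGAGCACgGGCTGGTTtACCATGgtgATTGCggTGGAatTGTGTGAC
St6galnac4: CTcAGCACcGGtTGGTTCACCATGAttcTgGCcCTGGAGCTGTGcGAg
St6galnac3: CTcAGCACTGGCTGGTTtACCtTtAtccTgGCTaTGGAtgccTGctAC
St6galnac2: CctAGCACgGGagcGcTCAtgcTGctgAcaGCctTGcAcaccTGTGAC
St6galnac1: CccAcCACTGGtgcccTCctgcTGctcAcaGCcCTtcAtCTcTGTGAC
In this window St6galnac6 (bases 724 to 771) and St6galnac4 (bases 631 to 678) matched St6galnac5 at 38 bases each, or 79.2%. St6galnac3 (bases 643 to 690) matched at 33 bases, or 68.8%. St6galnac2 (bases 904 to 951) and St6galnac1 (bases 1339 to 1386) matched at 26 bases each, or 54.2%. The glycoprotein enzymes St6galnac1 and St6galnac2 were thus the more distant ones in this window, an order that the whole coding sequences did not show. No stretch of 31 bases was shared between transcripts of any of the 6 genes, which limits how far reads of one member could be assigned to another.

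The genes lie in pairs, by the GENCODE M21 annotation. St6galnac1 and St6galnac2 are neighbours on the minus strand of chromosome 11, St6galnac3 and St6galnac5 on the minus strand of chromosome 3, and St6galnac4 and St6galnac6 on the plus strand of chromosome 2. Pigk, a subunit of the transamidase that attaches GPI anchors, overlaps St6galnac5 on the opposite strand. Of the 5961 stretches of 31 bases in the St6galnac5 transcripts, 2.18% occur on the opposite strand of other genes' transcripts, including Pigk, and 0.77% occur on the same strand of other genes' transcripts. The library kit marks the strand, but whether the counting used it is not given in the sources used here. Pigk itself stood at 76.0, 62.3, 59.3 and 70.5 CPM in control 1 to 4 and 74.7, 68.8, 81.7 and 56.4 CPM in endostatin 1 to 4, with groups that overlap. CPM is the estimated count scaled to the library total after trimmed mean (TMM) normalisation.

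St6galnac5 had more transcript in every library of the endostatin group than in any library of the control group. Its level was 8.99, 9.27, 7.41 and 6.36 CPM in control 1 to 4. After endostatin it was 13.9, 18.1, 11.6 and 20.4 CPM in endostatin 1 to 4. The lowest endostatin library, endostatin 3, lay above the highest control library, control 2. These values rest on 116 to 159 estimated counts per control library and 218 to 402 per endostatin library. The control mean was 8.01 ± 1.37 CPM and the endostatin mean 16.0 ± 3.96 CPM (SD, n = 4 each). The log2 fold change was 1.01 ± 0.21 (SE, from edgeR's quasi-likelihood fit with a batch term), or 2.02-fold, and its 95% interval ran from 0.53 to 1.49. The 95% interval for a gene of 5 to 30 CPM reached a median of 0.38 to either side in this design. Over all genes tested, 0 of 15176 (0%) passed an adjusted p of 0.05 in either direction in edgeR's quasi-likelihood test, and 485 (3.2%) had an unadjusted p under 0.05. DESeq2 called 4 genes, none of them a St6galnac gene, and limma-voom called 0. Groups that did not overlap were found for 143 genes (0.942%) with higher and 106 genes (0.698%) with lower levels after endostatin. A log2 fold change of at least 1 was found for 216 genes (1.42%). St6galnac5 was chosen from this same comparison, so nothing is read from its place among those genes.

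**Figure D1:**
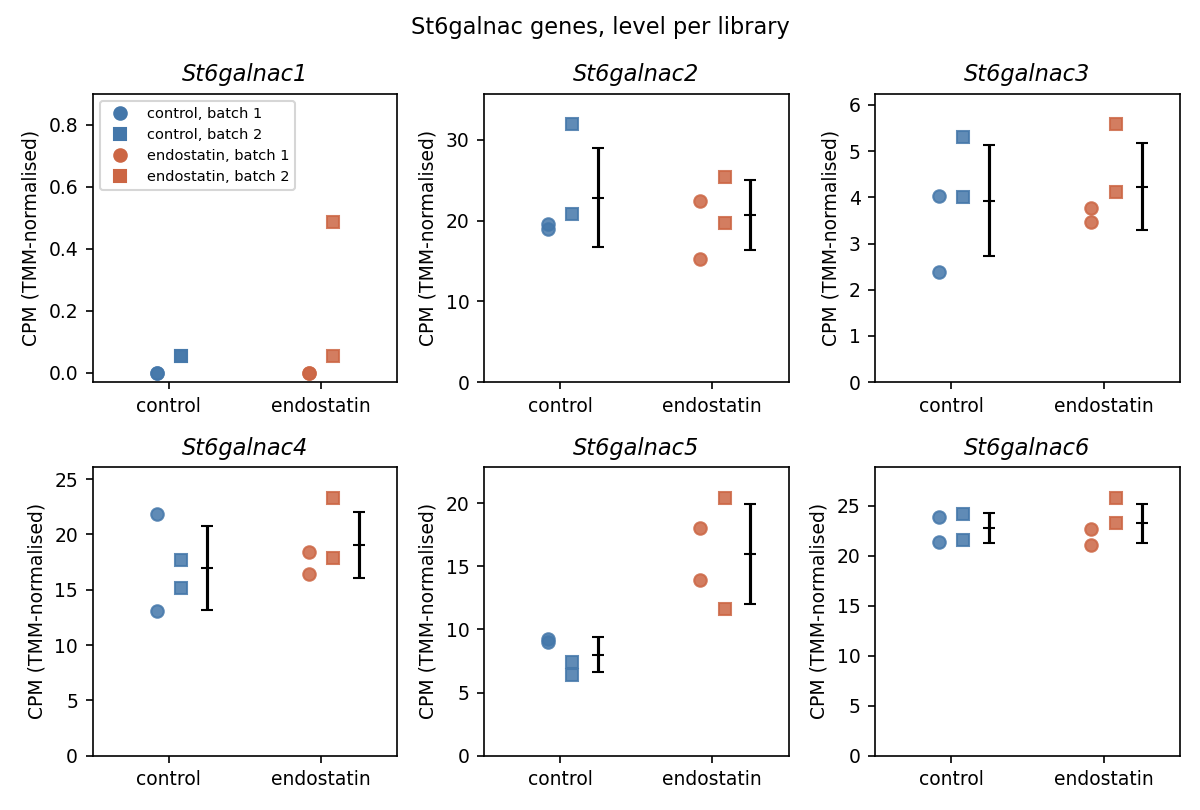
TMM-normalised CPM of the 6 St6galnac genes (vertical axes, each gene on its own scale) in the control and endostatin groups, 1 point per library, circles for batch 1 and squares for batch 2; black marks give mean and SD over 4 libraries, left out for St6galnac1. The groups separate for St6galnac5, with controls at 6.36 to 9.27 CPM and endostatin libraries at 11.6 to 20.4 CPM, and overlap for the other 5 genes.

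St6galnac5 was higher after endostatin in each batch, which follows from groups that do not overlap over all libraries. These libraries also chose the gene, so the values and intervals of each batch are descriptions and no separate support. In batch 1 the controls stood at 8.99 and 9.27 CPM and the endostatin libraries at 13.9 and 18.1 CPM; the log2 fold change was 0.81 ± 0.29, with an interval from 0.11 to 1.5. In batch 2 the controls stood at 7.41 and 6.36 CPM and the endostatin libraries at 11.6 and 20.4 CPM. The log2 fold change there was 1.22 ± 0.30, with an interval from 0.52 to 1.92. The batch 2 value was larger by 0.41 ± 0.41, with an interval from -0.57 to 1.39. In batch 2 the 2 endostatin libraries lay far apart, and the log2 fold change there was 0.76 without endostatin 4 and 1.56 without endostatin 3. Batch itself, a contrast that did not choose the gene, gave St6galnac5 12.6 CPM in batch 1 and 11.5 CPM in batch 2, a log2 difference of -0.20 ± 0.21 (edgeR's quasi-likelihood test, adjusted p = 0.744). It was -0.43 without endostatin 4, -0.31 without endostatin 1, -0.12 without control 4, -0.09 without endostatin 3 and -0.48 without control 3 and endostatin 4 (adjusted p = 0.623, 0.775, 0.828, 0.894 and 0.295).

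The enzymes of glycoprotein O-glycans gave no such separation. St6galnac1, which makes the sialyl-Tn antigen, was at or near 0. It had 0 estimated counts in control 1 and 2 and in endostatin 1 and 2, 1 count in each of control 3, control 4 and endostatin 3, and 9 counts (0.487 CPM) in endostatin 4. A count of 0 allows up to 3 counts, or 0.126 to 0.190 CPM in a single library, for counting error only. St6galnac1 did not pass the filter on low counts and was not tested, and 43.2% of its 31-base stretches also occur on the same strand in other genes' transcripts.

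St6galnac2, which adds sialic acid to the core of mucin-type chains, was among the most abundant members. It stood at 19.0, 19.5, 31.9 and 20.8 CPM in control 1 to 4 and 15.2, 22.4, 19.7 and 25.4 CPM in endostatin 1 to 4. Control 3 was the highest library and endostatin 1 the lowest, and the groups overlapped. Controls averaged 22.8 ± 6.11 CPM and endostatin libraries 20.7 ± 4.32 CPM (SD, n = 4 each). The log2 fold change was -0.13 ± 0.18, from -0.56 to 0.30 (edgeR's quasi-likelihood test, adjusted p = 1.00). The upper end of this interval lies below the 1.01 of St6galnac5, a gene chosen from this same contrast. Without control 3 the log2 fold change was 0.01.

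St6galnac3 and St6galnac4, which act on sialylated chains of glycoproteins and glycolipids, also had overlapping groups. St6galnac3 stood at 2.38, 4.02, 5.31 and 4.00 CPM in control 1 to 4 and 3.76, 3.46, 4.11 and 5.58 CPM in endostatin 1 to 4. Control 1 was the lowest library and endostatin 4 the highest. The log2 fold change was 0.12 ± 0.23, from -0.43 to 0.66 (edgeR's quasi-likelihood test, adjusted p = 1.00). St6galnac4 stood at 13.1, 21.9, 17.6 and 15.2 CPM in control 1 to 4 and 16.4, 18.4, 23.3 and 17.9 CPM in endostatin 1 to 4. Its lowest library was control 1 and its highest was endostatin 3. The log2 fold change was 0.16 ± 0.19, from -0.27 to 0.59 (edgeR's quasi-likelihood test, adjusted p = 1.00). It was 0.36 without control 2 (adjusted p = 0.891), 0.06 without control 1, 0.09 without control 4 and 0.04 without endostatin 3.

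St6galnac6, the ganglioside enzyme closest to St6galnac5 in coding sequence, was the steadiest member. It stood at 21.4, 23.9, 24.2 and 21.5 CPM in control 1 to 4 and 22.7, 21.1, 23.3 and 25.8 CPM in endostatin 1 to 4. All 8 libraries lay between 21.1 and 25.8 CPM. The log2 fold change was 0.03 ± 0.10, with an interval from -0.20 to 0.25 (edgeR's quasi-likelihood test, adjusted p = 1.00). The intervals of St6galnac2, St6galnac3, St6galnac4 and St6galnac6 had upper ends of 0.30, 0.66, 0.59 and 0.25. These lie below the 1.01 of St6galnac5, which was chosen from this contrast, so that its value may be too high. The interval of St6galnac5 starts at 0.53, below the upper ends of St6galnac3 and St6galnac4. The differences between the genes were not tested.

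Within batches, the intervals of the same 4 genes were wider than those over both batches. In batch 1 the log2 fold changes were -0.03 for St6galnac2, 0.17 for St6galnac3, -0.01 for St6galnac4 and -0.05 for St6galnac6. In batch 2 they were -0.23, 0.06, 0.33 and 0.10 in the same order. Each of these 8 intervals included 0. The interval of St6galnac3 ran from -0.67 to 1.02 in batch 1 and from -0.78 to 0.90 in batch 2. That of St6galnac4 in batch 2 ran from -0.31 to 0.96. Upward changes as large as the batch 1 value of St6galnac5 lie within these intervals of St6galnac3 and St6galnac4. The remaining upper ends lay below that value. They were 0.62 and 0.425 for St6galnac2 in batch 1 and 2, and 0.63 for St6galnac4 in batch 1. For St6galnac6 they were 0.30 in batch 1 and 0.44 in batch 2. Between batches, 0 of the 5 tested members passed the threshold, against 6 of all 15176 genes (0.0395%). Likewise 0 of 5 had an unadjusted p under 0.05, against 1513 of all genes (9.97%), and 0 of 5 had batches that did not overlap, against 974 (6.42%). St6galnac3 and St6galnac2 had the highest batch differences, at 0.48 ± 0.23 and 0.36 ± 0.18 with higher levels in batch 2 (edgeR's quasi-likelihood test, adjusted p = 0.547 and 0.555), and St6galnac4 and St6galnac6 had 0.08 ± 0.19 and 0.09 ± 0.10 (adjusted p = 0.898 and 0.751).

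**Figure D2:**
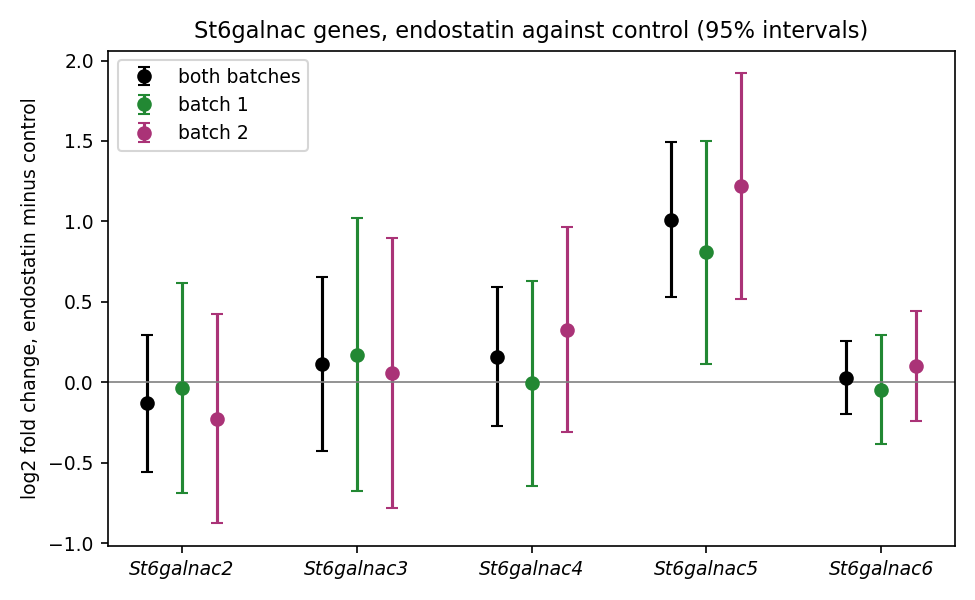
Log2 fold change of endostatin minus control (vertical axis) for the 5 tested St6galnac genes, with 95% intervals, for both batches together (black), batch 1 (green) and batch 2 (purple). The St6galnac5 values are 1.01, 0.81 and 1.22, a gene chosen for this comparison, and the intervals of the other 4 genes include 0.

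Levels of different genes were compared per length, in TPM over all 8 libraries. The members were not chosen by level, but the endostatin difference that chose St6galnac5 enters its mean. The neighbouring pairs compared follow the order of the means in these same libraries. St6galnac6 was highest at 27.5 ± 4.93 TPM (SD, n = 8), followed by St6galnac2 at 24.9 ± 7.75 and St6galnac4 at 12.6 ± 2.87 TPM. St6galnac5 came next at 4.36 ± 2.04 TPM, then St6galnac3 at 3.24 ± 1.74 and St6galnac1 at 0.0658 ± 0.135 TPM. The tissue thus carried chiefly St6galnac6, St6galnac2 and St6galnac4 transcripts. St6galnac5 was a minor member also after endostatin, at a mean of 5.87 TPM against 13.6 TPM for St6galnac4. St6galnac2 exceeded St6galnac4 in 8 of 8 libraries, by 0.96 ± 0.30 on the log2(TPM + 0.1) scale. St6galnac4 exceeded St6galnac5 in 8 of 8 by 1.59 ± 0.58, and St6galnac3 exceeded St6galnac1 in 8 of 8 by 4.38 ± 0.80. Each of these 3 steps had p = 0.00781 in an exact two-sided sign-flip permutation test over libraries, the smallest p that 8 libraries can give, and adjusted p = 0.0130 over the 5 neighbouring pairs. The other 2 steps did not differ beyond the spread of the libraries: St6galnac6 was above St6galnac2 in 5 of 8 libraries (0.18 ± 0.48, exact permutation adjusted p = 0.320) and St6galnac5 above St6galnac3 in 6 of 8 (0.49 ± 0.79, exact permutation adjusted p = 0.186). As the libraries of both groups enter, the place of St6galnac5 holds the endostatin libraries too. In controls alone its mean was 2.85 TPM, below the 3.10 TPM of St6galnac3, so that St6galnac5 ranked 5 there.

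**Figure D3:**
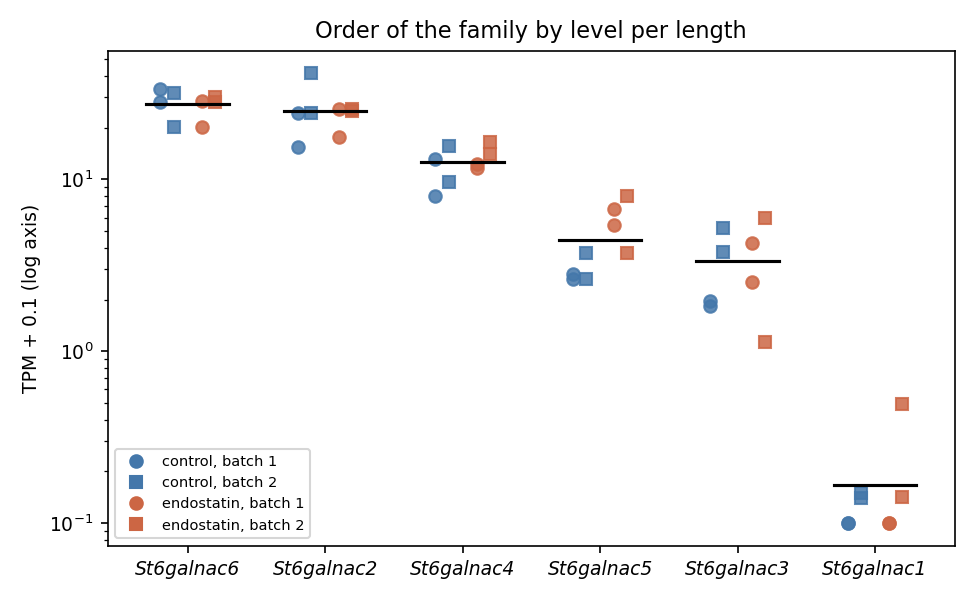
TPM + 0.1 of the 6 St6galnac genes (vertical log axis) in order of mean level, 1 point per library, control in blue and endostatin in orange, circles for batch 1 and squares for batch 2; the line marks the mean of 8 libraries. St6galnac6, St6galnac2 and St6galnac4 lead, and St6galnac1 lies at the floor of the scale.

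The share of St6galnac5 in the family's summed TPM was 4.53, 3.61, 3.74 and 4.2% in control 1 to 4 and 7.93, 9.84, 4.91 and 9.47% in endostatin 1 to 4. Every endostatin library lay above every control library, and endostatin 3 was again the lowest of its group. This share restates the difference that chose St6galnac5 and is no separate support. Of the summed group means in TPM, St6galnac5 made up 3.95% in controls and 8.04% after endostatin. The family sum itself overlapped between groups, at 55.7 to 97.8 TPM in controls and 66.9 to 83.8 TPM after endostatin. By level St6galnac5 ranked 4 in control 1 and 2, 5 in control 3 and 4, where St6galnac3 was above it, and 4 in all 4 endostatin libraries.

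The counts of St6galnac5 came almost wholly from 1 transcript. St6galnac5-201 (5667 bases, 5 exons, protein-coding) held 96.8 to 100% of the gene's estimated counts in every library. On the TPM scale St6galnac5-201 stood at 2.52, 2.71, 2.52 and 1.81 in control 1 to 4. It stood at 4.21, 5.37, 3.64 and 6.47 in endostatin 1 to 4, with no overlap. As it holds nearly all counts of the gene, this restates the difference that chose St6galnac5. The short noncoding St6galnac5-202 (628 bases) had 26.5 estimated counts in all, spread over 5 libraries. It added 1.14 TPM in control 3 and 0 in endostatin 3, so that the gene sums of these 2 libraries, 3.66 and 3.64 TPM, crossed while their CPM did not.

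The more abundant members were spread over more transcripts. St6galnac2-201 held 55.2 to 72.2% of the counts of St6galnac2, and St6galnac4-201 held 52.7 to 77.4% of those of St6galnac4. Of the transcripts of St6galnac4, St6galnac4-204 took 13.0 to 15.6% of the counts in control 4, endostatin 1 and endostatin 2 and 0 in the other 5 libraries. St6galnac6 has 13 transcripts, 11 of them protein-coding, and the estimates moved between them from library to library while the gene sum did not. St6galnac6-203 held 63.6% of the counts in control 4 and 0% in control 3, where St6galnac6-201 held 49.4%, a transcript with 0 counts in the other 7 libraries. These transcripts share most of their bases, and Salmon divides reads between them by estimate, so no comparison was made at that level.

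Over the 8 libraries the genes whose log2 CPM went most closely with St6galnac5 were genes known from liver. Of the 14342 genes that averaged 1 CPM or more, they were F10, coagulation factor X, with Pearson's r = 0.981, Ugt1a1, which conjugates bilirubin, with 0.967, Upb1, of pyrimidine breakdown, with 0.960, Serpinc1, antithrombin, with 0.947, and Haao, of tryptophan breakdown, with 0.939. The median r over all genes was -0.01, and the middle 90% of genes lay between -0.59 and 0.62. The points share their treatment, batch and library, and these genes were low, with means of 1.42 (F10), 3.88 (Ugt1a1), 1.51 (Upb1), 5.19 (Serpinc1) and 1.56 (Haao) CPM. Once the mean of each batch and treatment was subtracted, which leaves 4 independent differences, the closest genes were Smtn, Rapgef5, Irf4, Tedc2 and Pcdhb4, with r from 0.994 to 0.997. By that measure r was 0.941 for F10, 0.979 for Ugt1a1, 0.984 for Upb1, 0.908 for Serpinc1 and 0.905 for Haao. Their ranks were 138, 25, 18, 305 and 321 of 14342, so that many other genes came as close. These genes had been picked by r over the same libraries, so their values here are no separate evidence. Within the family, r with St6galnac5 was 0.25 for St6galnac6, 0.24 for St6galnac4, 0.15 for St6galnac3 and -0.09 for St6galnac2.

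Hepatocyte transcripts differed widely between the libraries and were on average higher after endostatin. All 12 listed markers were found, and the 12 together gave 1407 to 5338 TPM in controls and 2007 to 4936 TPM after endostatin, mostly through Cyp2e1 (1392 to 5242 TPM over all libraries). Without Cyp2e1, left out after its values were seen, the 11 others, such as Alb (albumin) and Ttr (transthyretin), gave sums of 142.1, 96.9, 14.6 and 22.6 TPM for control 1 to 4. The sums for endostatin 1 to 4 were 336.6, 507.2, 22.9 and 979.6 TPM. Endostatin 3 thus lay with the batch 2 controls, and the other endostatin libraries lay above every control.

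The libraries fell in a similar order for St6galnac5 and for this sum. From the highest to the lowest, the endostatin libraries ran endostatin 4, 2, 1 and 3 in both, and the batch 1 controls were above the batch 2 controls in both. Pearson's r of the log2 values over the 8 libraries was 0.852 without Cyp2e1, as a description of libraries that share treatment and batch. With Cyp2e1 kept in the sum, as first listed, r was -0.012, so this likeness depends on leaving that gene out. The ranges were unequal: the hepatocyte sum without Cyp2e1 spanned 67.3-fold and St6galnac5 3.21-fold. In endostatin 3, where the hepatocyte sum was 22.9 TPM, St6galnac5 stood at 11.6 CPM, or 1.69 times the mean of control 3 and 4 (14.6 and 22.6 TPM). Control 1, with a sum of 142.1 TPM, stood at 8.99 CPM. The part of hepatocyte transcripts in the St6galnac5 difference was not tested beyond these values, and in bulk tissue fewer cells of a type and less RNA per cell cannot be told apart.

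**Figure D4:**
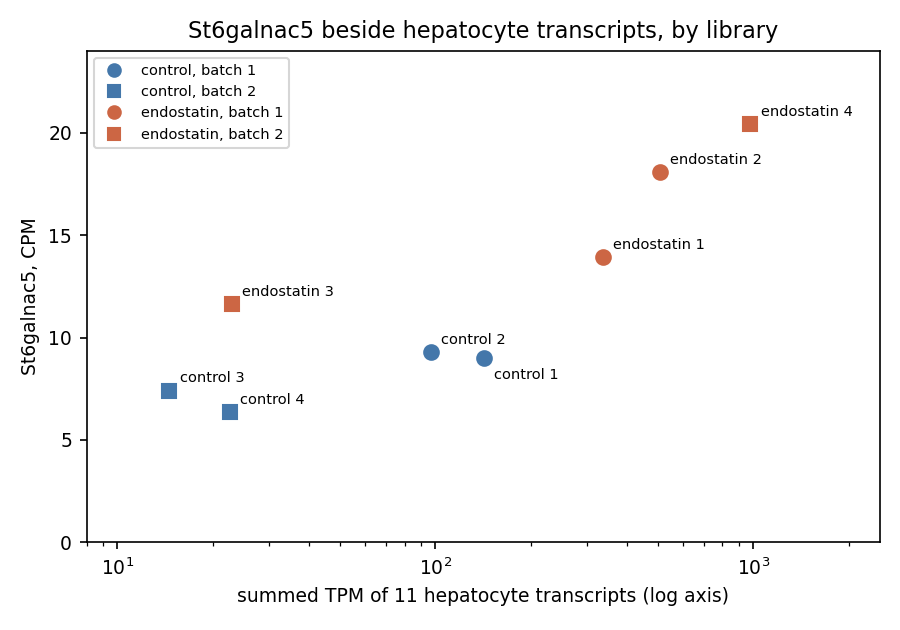
St6galnac5 in CPM (vertical axis) against the summed TPM of 11 hepatocyte transcripts (horizontal log axis), 1 labelled point per library, control in blue and endostatin in orange, circles for batch 1 and squares for batch 2. Endostatin 3 lies at 22.9 TPM and 11.6 CPM, control 1 at 142.1 TPM and 8.99 CPM, and control 2 at 96.9 TPM and 9.27 CPM. Cyp2e1 was left out of the sum after its values were seen.

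Sums of the other marker lists overlapped between the groups, but several went with or against St6galnac5 over the 8 libraries. Pearson's r of log2(TPM + 0.1) with St6galnac5 was 0.772 for Schwann cell, 0.766 for mast cell and 0.704 for blood endothelial markers, as descriptions. It was 0.674 for B and plasma cell, 0.628 for fibroblast and progenitor and -0.692 for mammary and keratin epithelium markers. It was also below 0 for skeletal muscle (-0.335), adipocyte (-0.185), brown fat (-0.135) and T and NK cell markers (-0.064). Values above 0 for the log2 fold change were found for all 12 fibroblast and progenitor, 5 of 5 tested mast cell and 10 of 10 macrophage markers. Over all genes tested, 46.6% were above 0. The medians were 0.25 (fibroblast and progenitor), 0.46 (mast cell) and 0.38 (macrophage). In batch 1 they were -0.01, 0.04 and 0.03 in the same order, and in batch 2 they were 0.61, 0.88 and 0.76. Hepatocyte markers moved further, with 11 of 12 values above 0 and a median of 3.62 (1.80 in batch 1, 5.94 in batch 2). Medians were below 0 for skeletal muscle (-3.01, with 0 of 8 tested above 0), brown fat (-1.39, 0 of 3) and oviduct and uterus markers (-0.66, 2 of 8). They were also below 0 for mammary and keratin epithelium (-0.47, 0 of 2) and adipocyte markers (-0.03, 3 of 10). Fibroblast and progenitor markers (12 of 12 found) gave 2336 to 3541 TPM in controls and 2764 to 4798 TPM after endostatin, and mast cell markers (7 of 7 found) 29.5 to 47.6 and 42.4 to 72.4 TPM; B and plasma cell markers (7 of 7 found) gave 11.3 to 21.2 and 14.2 to 38.5 TPM. The part of these cells in the St6galnac5 values was not tested. Schwann cell markers (7 of 7 found) gave 30.6 to 38.1 TPM in controls and 34.3 to 46.6 TPM after endostatin. Neuron markers (8 of 8 found) gave 3.45 to 7.15 and 4.00 to 8.59 TPM, but only 1 of them, Stmn2, averaged 1 TPM or more. A marker counts as found when its name is among the genes read, whatever its level. Blood endothelial markers (10 of 10 found), of the cells endostatin is known to act on, gave 462.5 to 579.2 and 541.4 to 606.5 TPM. Markers of oviduct and uterus (13 of 13 found) stood apart in control 3 (581.8 TPM) and endostatin 4 (427.9 TPM), against 37.2 to 67.3 TPM elsewhere. Skeletal muscle markers (10 of 10 found) stood apart in control 1 (240.6 TPM) and control 4 (463.7 TPM), against 33.6 to 106.2 TPM elsewhere. Without control 3 and endostatin 4 the log2 fold change of St6galnac5 was 0.83, and without control 1 and 4 it was 0.95. Kidney markers summed to at most 0.914 TPM, with Umod, Slc12a1 and Slc34a1 at 0, and Csn2 of the mammary list was at 0.

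The enzymes, carriers and receptors that make, remove or read sialic acid were followed as 75 further genes, of which 60 were tested. None passed an adjusted p of 0.05 for endostatin or for batch (edgeR's quasi-likelihood test), and DESeq2 and limma-voom also called 0 of them for endostatin. Their median log2 fold change was 0.06 and 40 of 60 were above 0, against a median of -0.01 and 7072 of 15176 (46.6%) over all genes. An unadjusted p under 0.05 was found for 2 of them, St3gal2 and Cd33, a share near the 3.2% of all genes. Groups that did not overlap were found for 2, St3gal2 and Galnt4, both higher after endostatin, against 0.942% (higher) and 0.698% (lower) of all genes. In the St6galnac family, 4 of 5 tested genes were above 0, with a median of 0.12.

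Among the other sialyltransferases (10 of 14 tested), 6 values were above 0, with a median of 0.06. St3gal2, which sialylates galactose on gangliosides and O-glycans, stood at 55.7, 54.7, 60.0 and 61.5 CPM in control 1 to 4 and 71.3, 62.8, 90.0 and 72.4 CPM in endostatin 1 to 4. Every endostatin library lay above every control, and endostatin 3 was the highest. Its log2 fold change was 0.35 ± 0.09 (edgeR's quasi-likelihood test, unadjusted p = 0.00585, adjusted p = 1.00), with 0.28 in batch 1 and 0.42 in batch 2. St3gal5, the GM3 synthase that opens ganglioside synthesis, had 0.33 ± 0.22, with -0.15 in batch 1 and 0.81 in batch 2. St3gal6 had -0.31 ± 0.19 and St3gal1, which sialylates core O-glycans, -0.08 ± 0.08.

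The supply of activated sialic acid, with 7 of 7 genes tested, had 3 values above 0 and a median of -0.01. Gne, the first enzyme of sialic acid synthesis, had 0.07 ± 0.13, Cmas, which activates the sugar to its CMP form, 0.05 ± 0.11, and Slc35a1, which carries CMP-sialic acid into the Golgi, -0.16 ± 0.12. Cmah, which hydroxylates sialic acid, had 0.30 ± 0.15. Npl, which splits sialic acid, had -1.13 ± 0.79, with 56.8 CPM in control 3 against 3.69 to 7.37 CPM in the other 7 libraries. Of the sialidases, which remove sialic acid, 2 of 4 were tested: the lysosomal Neu1 had 0.27 ± 0.14 and the membrane-bound Neu3 -0.04 ± 0.36.

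Ganglioside core synthesis (10 of 12 tested) had 6 values above 0 and a median of 0.03, against 9 above 0 and a median of 0.06 for ganglioside breakdown (11 of 13 tested). With 1 library left out, the first median ranged from -0.06 to 0.18 (the highest without control 3) and the second from -0.02 to 0.18 (the highest without control 2). B4galnt1, which makes GM2 and GD2, had 0.06 ± 0.36, and B4galt6, a lactosylceramide synthase, -0.19 ± 0.16. St8sia1, the GD3 synthase, was below the count filter at 0.329 ± 0.112 CPM in controls and 0.280 ± 0.201 CPM after endostatin (SD, n = 4 each). B3gnt5, which starts the lacto series, had -1.0 ± 0.97, with 10.9 CPM in control 3 against 0.357 to 1.14 CPM elsewhere. In breakdown, Scarb2, a lysosomal membrane protein, had 0.12 ± 0.09 and Galc, a galactosylceramidase, -0.08 ± 0.14. Gla, a lysosomal galactosidase, is listed at 0 in all libraries.

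O-GalNAc glycan synthesis, which makes the chains that St6galnac1 and St6galnac2 extend, had 16 of 21 genes tested, with 10 values above 0 and a median of 0.04. Galnt4, which starts such chains, stood at 21.7, 20.7, 21.8 and 18.5 CPM in control 1 to 4 and 25.3, 23.0, 22.8 and 25.1 CPM in endostatin 1 to 4. The groups did not overlap, but the gap between control 3 and endostatin 3 was small, and the log2 fold change was 0.22 ± 0.10 (edgeR's quasi-likelihood test, adjusted p = 1.00). Galnt6 had 1.00 ± 0.61, with 13.4 CPM in endostatin 4 and at most 3.37 CPM in the other libraries. Galnt18 had -0.15 ± 0.22, Galnt11 -0.06 ± 0.10, the core enzyme C1galt1 0.01 ± 0.11 and its chaperone C1galt1c1 -0.03 ± 0.13. Gcnt3, which branches mucin chains, was not tested and had a mean of 15.8 CPM, with 55.7 TPM in control 3 and at most 2.22 TPM in the other libraries.

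Receptors that read sialic acid had 9 of 12 genes tested, 8 values above 0 and a median of 0.07, with medians of -0.13 in batch 1 and 0.44 in batch 2. With 1 library left out the median ranged from 0.04 to 0.42, the highest value without control 2. Cd33, a myeloid receptor of the Siglec family, had 0.49 ± 0.20 (unadjusted p = 0.0373; edgeR's quasi-likelihood test, adjusted p = 1.00), Selp, P-selectin, 0.32 ± 0.22, and Siglecg -0.26 ± 0.40. Macrophage markers (10 of 10 found) gave 631.0 to 936.2 TPM in controls and 793.3 to 1369 TPM after endostatin; their part in the receptor values was not tested.

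**Figure D5:**
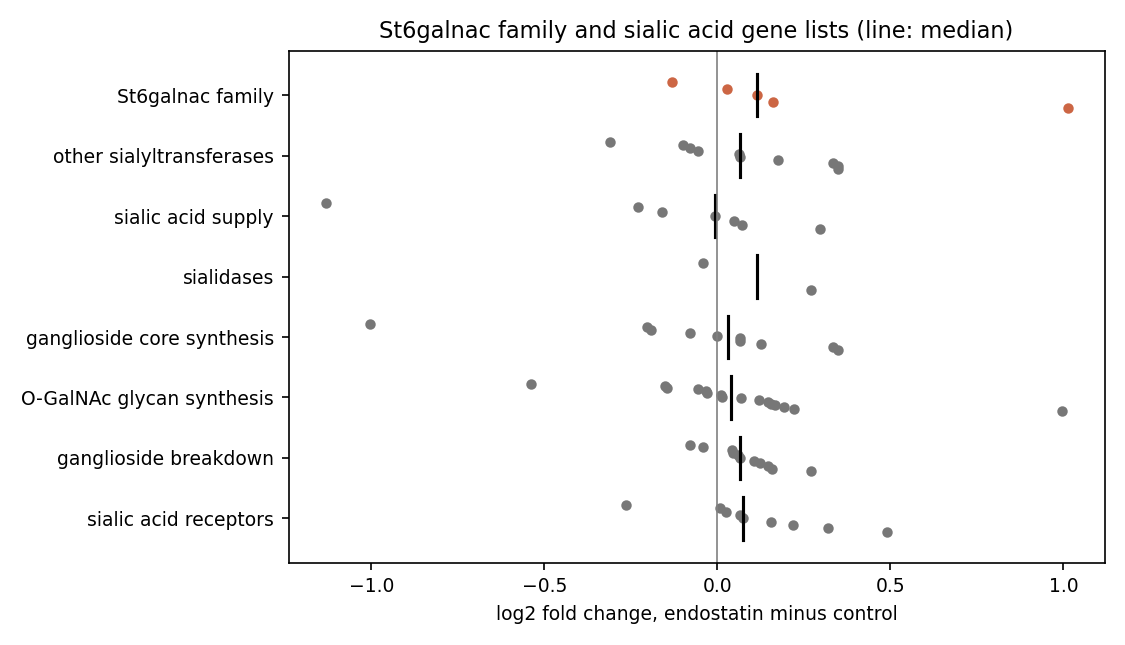
Log2 fold change of endostatin minus control (horizontal axis) of the tested St6galnac genes (orange) and of 7 lists of sialic acid and ganglioside genes (grey), 1 point per gene, with a black line at each list's median. The medians lie between -0.01 and 0.12. St6galnac5, a gene chosen for this comparison, lies at 1.01, and Galnt6 lies at 0.995.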

How the data were processed

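Per the submitters' processing notes, reads were quantified with Salmon and the build is GRCm39; no source used here gives its version or index. The deposited files give, per transcript, estimated counts, TPM computed by the authors' Salmon run, and effective lengths. Of 115620 transcripts, 113664 (98.31%) matched GENCODE M21, used for names and transcript sequences only; coordinates are not printed because M21 is on an older build. The 1956 others (0.944 to 1.154% of counts) were kept as features. Counts and TPM were summed per symbol, and counts rounded. St6galnac2 joins 2 gene identifiers.

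Library totals were 15826783 to 23786594 estimated counts. The filter filterByExpr left 15176 genes, fitted with TMM scaling and the quasi-likelihood test of edgeR 4.0.16 (R 4.3.3) on batch and treatment; a model with a mean per batch and treatment gave within-batch values. Tests were two-sided; p-values were adjusted by Benjamini-Hochberg over all genes tested, with a threshold of 0.05. An adjusted p printed in the report as 1.00 was 0.9997. Where no p is given for a named gene of the sialic acid lists, its adjusted p was the same. The script was tested on simulated data. Levels were compared with scipy 1.17.1, with a pseudocount of 0.1 TPM, and sequences with biopython 1.88. Alternatives covered DESeq2 1.42.0, limma-voom (limma 3.58.1), scaling, filters, length offsets, coding transcripts, batch and replicate terms, and omitted libraries. Replicate numbers did not pair libraries.

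The members, lists and tests were chosen with earlier results of these data known. Named were all members, up to 2 genes per list and direction with the smallest p among those averaging 1 CPM or more, 12 further pathway genes, the 5 genes most like St6galnac5 by each measure, and its neighbours. The labelled description of endostatin 4 repeats the read-file stub of endostatin 3; their values differ, and the labels were kept.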

Additional observations from a re-analysis of the deposited data

Results flagged for a closer look

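Of 64 groups of 4 libraries looked at (32 named genes in 2 groups), 7 held a library that lay far from the other 3; chance alone gives this in about 1 in 20 groups. For St6galnac1, endostatin 4 stood at 0.487 CPM and the other endostatin libraries at 0 to 0.0534 CPM. For St6galnac2, control 3 stood at 31.9 CPM and the other controls at 19.0 to 20.8 CPM. Control 3 was also apart for B3gnt5 (10.9 against 0.357 to 0.991 CPM), Npl (56.8 against 3.69 to 5.87 CPM) and Galnt11 (35.1 against 28.3 to 29.2 CPM). Control 3 and endostatin 4 also had the highest sums of oviduct and uterus markers, whose part in these values was not tested. Neu3 was low in control 1, at 2.62 CPM against 7.02 to 7.35 CPM, and Selp was high in control 2, at 8.28 CPM against 4.99 to 5.20 CPM. St6galnac5 had no such library in either group.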

How the results depend on the processing

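St6galnac5 kept a positive log2 fold change in 20 of 20 alternatives, from 0.78 (without endostatin 4) to 1.13 (without endostatin 1), as a description. With the replicate block, whose numbers did not pair the libraries (correlations of deviations from -0.33 to 0.24), it was 0.98 and no gene was called. Leaving out 1 library moved it from 0.61 to 0.98 in batch 1 and from 0.76 to 1.56 in batch 2. DESeq2 called 4 genes for endostatin (3 higher, 1 lower), none a member; the other 19 alternatives called 0. For batch, 6 genes became 171 with DESeq2, 10 with limma-voom, 11 without the filter, 2 with library size only, 2 with coding transcripts, 27 without control 3 and endostatin 4, 0 without control 1 and 4, and 0 to 18 with 1 library left out; no member was called. Values near 0 changed sign. St6galnac2 ranged from -0.27 to 0.011 with 1 library left out, St6galnac3 from -0.028 to 0.27, St6galnac4 from 0.04 to 0.36 and St6galnac6 from -0.021 to 0.075; without control 1 and 4, St6galnac3 was -0.14, St6galnac4 -0.059 and St6galnac6 -0.05. With length offsets St6galnac6 was -0.12 for endostatin and -0.13 for batch. For batch, St6galnac4 was -0.045 with coding transcripts and ranged from -0.04 to 0.27 with 1 library left out. List medians with 1 library left out ranged from 0.03 to 0.12 (other sialyltransferases), -0.06 to 0.03 (supply), -0.04 to 0.27 (sialidases) and -0.07 to 0.12 (O-GalNAc). The causes were not tested. The order of levels held in 11 of 11 alternatives, with 3 or 4 pairs past the threshold. Depth limits St6galnac1, with 12 counts in all, and the transcripts of St6galnac6. Summing by gene identifier was an alternative chosen after seeing the data.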
